A study of Mus musculus with 6 samples.

Results

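The genes described here are 7 genes enriched in atrial myocardium: Nppa, Sln, Myl4, Myl7, Bmp10, Pam and Dkk3. They were chosen by symbol and read from a table of 20254 genes of mouse heart RNA sequencing, all 7 were in the table, and all 7 passed the filter on low values (13823 genes reached 10 in 3 libraries or more and were tested). The hearts came from 6 adult C57BL/6 mice: 3 Trdn-as knockout (KO) mice and 3 wild-type (WT) mice. Trdn-as is by its name an antisense transcript of Trdn, the gene of triadin, a protein of the calcium release complex. In each genotype replicates 1 and 2 were 14 months old and replicate 3 was 5 months old, so the KO libraries are KO-1, KO-2 (14 months) and KO-3 (5 months), and the WT libraries are WT-1, WT-2 (14 months) and WT-3 (5 months). The labels name the tissue as heart and give neither the chambers taken nor the construction of the knockout allele. In such bulk tissue, fewer atrial cells and less RNA per atrial cell cannot be told apart.

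Atrial and ventricular heart muscle use related but separate sets of proteins. Nppa encodes atrial natriuretic peptide, a hormone that atrial cells store in granules and release on stretch, and Pam encodes the peptidyl-glycine alpha-amidating monooxygenase, a main membrane protein of those granules. Myl4 and Myl7 encode the essential and the regulatory myosin light chain of atrial myosin, the counterparts of ventricular Myl3 and Myl2. Sln encodes sarcolipin, a very small membrane protein that inhibits the calcium pump SERCA, as phospholamban (Pln) does in the ventricle. Bmp10 encodes a secreted ligand of the bone morphogenetic protein family that in the adult is made mainly by the right atrium and acts on endothelial cells, and Dkk3 a secreted glycoprotein of the Dickkopf family.

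Sarcolipin is shown by its coding sequence because of its size: 96 bases, or 31 codons before the stop, in the second of 2 exons (chr9:53853473-53853568, plus strand, GRCm38, GENCODE M21 transcript). The start and stop codons are in capitals.
Sln: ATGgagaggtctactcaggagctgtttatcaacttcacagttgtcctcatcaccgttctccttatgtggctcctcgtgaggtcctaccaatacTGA

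The promoters of Nppa, Myl4 and Myl7, which fell together at 14 months, are shown beside that of Bmp10, which did not pass that test. Each runs from 250 bases before to 50 bases after the RefSeq start site on the strand of the gene (GRCm38.p6), and capitals mark short words searched on both strands: AGGTGT, read by T-box factors, AGATAA, read by zinc finger factors such as Gata4, AGGTCA, read by nuclear receptors, AAGTG, read by homeodomain factors such as Nkx2-5, and CATTCC, read by TEAD factors. The windows are chr4:148000472-148000771 (plus) for Nppa, chr11:104550413-104550712 (plus) for Myl4, chr11:5898733-5899032 (minus) for Myl7 and chr6:87428744-87429043 (plus) for Bmp10.
Nppa: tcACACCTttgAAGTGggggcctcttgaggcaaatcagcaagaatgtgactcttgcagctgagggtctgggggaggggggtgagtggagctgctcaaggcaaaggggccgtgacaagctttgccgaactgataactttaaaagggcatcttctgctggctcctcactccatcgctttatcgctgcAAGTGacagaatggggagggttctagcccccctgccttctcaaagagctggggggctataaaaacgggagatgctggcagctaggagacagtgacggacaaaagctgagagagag
Myl4: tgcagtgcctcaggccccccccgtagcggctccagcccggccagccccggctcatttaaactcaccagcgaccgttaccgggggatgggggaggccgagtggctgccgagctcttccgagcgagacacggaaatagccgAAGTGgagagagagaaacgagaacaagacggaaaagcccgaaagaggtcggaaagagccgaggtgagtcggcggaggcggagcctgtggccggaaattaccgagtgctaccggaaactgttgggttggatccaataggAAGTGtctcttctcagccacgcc
Myl7: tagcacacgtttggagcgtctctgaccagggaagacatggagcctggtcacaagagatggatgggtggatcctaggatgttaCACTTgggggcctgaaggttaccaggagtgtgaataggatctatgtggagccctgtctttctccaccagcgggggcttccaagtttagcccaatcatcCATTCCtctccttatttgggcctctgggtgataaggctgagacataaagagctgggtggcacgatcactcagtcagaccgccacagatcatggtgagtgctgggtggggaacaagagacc
Bmp10: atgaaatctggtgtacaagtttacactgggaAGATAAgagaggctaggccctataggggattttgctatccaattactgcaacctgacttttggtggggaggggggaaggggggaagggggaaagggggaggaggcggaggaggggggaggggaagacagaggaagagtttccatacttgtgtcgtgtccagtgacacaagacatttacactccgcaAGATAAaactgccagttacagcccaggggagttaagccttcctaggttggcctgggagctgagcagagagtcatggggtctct

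The Nppa window held AGGTGT on the other strand 248 bases before the start and AAGTG at 239 and 65 bases before it. Myl4 held AAGTG at 111 bases before the start and again from base 28 of the transcript, and Myl7 held AAGTG on the other strand at 168 and CATTCC at 70 bases before the start. Bmp10 held AGATAA at 219 and 33 bases before the start, and the Pam window held 0 of the words. Of 32851 mouse promoter windows of this length, AAGTG was in 46.4%, AGGTCA in 16.3%, CATTCC in 14.7%, AGGTGT in 13.7% and AGATAA in 11.2%. AAGTG, the most common of the words, was the only one that Nppa, Myl4 and Myl7 shared, and a match describes the letters and is not a site of binding. Only these exact words were searched. TGATAA, which differs from AGATAA in its first letter, is in the Nppa and Myl7 windows and was not marked.

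The deposited normalized values summed to between 19810148 and 21573127 per KO library and between 19868549 and 23510139 per WT library, and the 7 genes made up 0.128 to 0.280% of this sum in KO and 0.174 to 0.352% in WT. The heart label was met by 7 cardiomyocyte markers, whose summed value was 477536 to 548737 in KO and 511740 to 902828 in WT. WT-3, the 5-month WT heart, stood apart as the highest in that sum and in 5 of the 7 atrial genes. Lung surfactant gene Sftpc was at 0 to 3.07 in every library, and the airway gene Scgb1a1 was at 518 in KO-1 and at most 2.91 elsewhere. Genes of the Y chromosome summed to 2652, 273 and 4775 in KO-1, KO-2 and KO-3 and to 3046, 213 and 4102 in WT-1, WT-2 and WT-3, so in both genotypes replicate 2 was low, as in female mice; the labels give no sex. Trdn itself was at 3429, 3460 and 5606 in KO and 5702, 5600 and 9104 in WT, and Trdn-as was not analysed here.

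Between the ages, Nppa, Sln, Myl4 and Myl7 fell to 30.3 to 45.8% of the 5-month level in 14-month hearts, while Bmp10, Pam and Dkk3 did not pass the test. Both hearts with low Y chromosome sums were 14 months old, so the ages were not balanced in these sums, and the part of sex was not tested. Without both replicate 2 libraries the age values were -1.07 log2 for Nppa, -1.49 for Sln, -0.89 for Myl4 and -1.58 for Myl7. All 4 called genes were lower at 14 months, against 16% of all tested genes called lower, 17.7% called higher and 33.7% called in either direction (limma, Benjamini-Hochberg adjusted p under 0.05). The same 4 genes had an unadjusted p under 0.05, as did 44.7% of all genes. Their ages did not overlap, as in 50.7% of all genes (14 months lower in 25%, higher in 25.7%). The share called lower ran with transcript length. It was 58.5% under 1000 bases, the class of Nppa, Myl4 and Myl7, and 37% at 1000 to 1500 bases, the class of Sln by its GENCODE transcript. Between KO and WT, 0 of the 7 genes passed, as did 0% of all genes, and the fitted value of each of the 7 was below WT. At an unadjusted p under 0.05 the count was again 0 of 7, against 6.08% of all genes. The difference between genotypes was not called different between the ages for any of the 7, against 2.08% of all genes, and 1 of 7 (Myl7) had an unadjusted p under 0.05, against 23.2% of all genes.

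**Figure D1:**
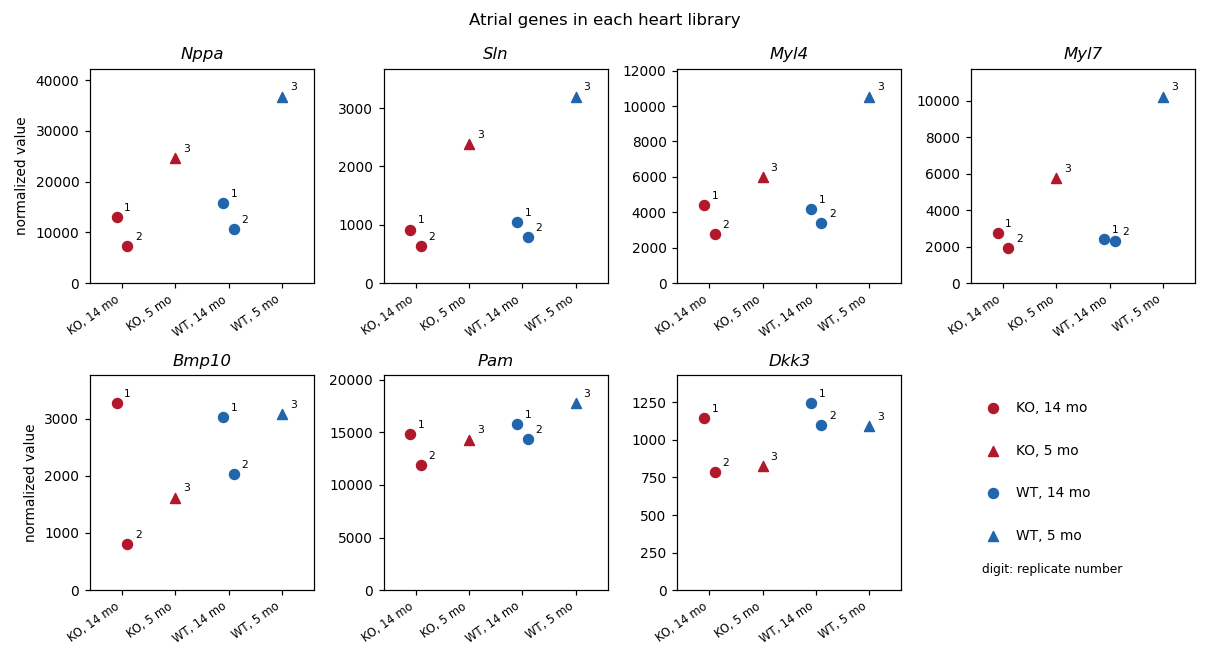
Normalized values (y axis, from 0) of the 7 atrial genes in every library, with KO in red, WT in blue, circles for 14 months and triangles for 5 months; digits give the replicate number. In Nppa, Sln, Myl4 and Myl7 both 5-month hearts lay above all 4 hearts of 14 months, and KO-2 was the lowest library in all 7 genes.

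Nppa (ENSMUSG00000041616, chromosome 4, 148000722 to 148002079, plus strand) stood at 13038 and 7227 in the 14-month KO hearts and 24597 in the 5-month KO heart, against 15704 and 10675 in the 14-month WT hearts and 36768 in the 5-month WT heart. The ages did not overlap, while the genotypes did: WT-2 lay below KO-1 and KO-3. At 14 months the hormone gene was at 37.3% of its 5-month level (95% interval 25.0 to 55.6%), which is -1.42 on the log2 scale (limma SE 0.25, adjusted p = 0.00438). The call was lost without KO-3 (-1.51 log2, limma adjusted p = 0.0979) and without WT-3 (-1.34 log2, limma adjusted p = 0.118). KO hearts averaged 14954 (SD 8842, n = 3) and WT hearts 21049 (SD 13844, n = 3), and the fit with age as a covariate placed KO at 72.2% of WT (95% interval 49.6 to 105%; limma adjusted p = 0.745). In the 14-month KO hearts Nppa was at 83.0% (KO-1) and 67.7% (KO-2) of the WT heart of the same replicate number, and at 66.9% in the 5-month pair. Such same-number percentages, here and below, follow the labels, and the hearts were not taken as pairs.

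Pam, the granule enzyme (ENSMUSG00000026335, chromosome 1, 97795114 to 98095646, minus strand), varied least. Its values were 14815 and 11884 in the 14-month KO hearts and 14324 in the 5-month KO heart, against 15778 and 14347 in the 14-month WT hearts and 17764 in the 5-month WT heart. The highest library held 1.49 times the lowest, whereas in Nppa it held 5.09 times the lowest. The age difference was -0.17 log2 (SE 0.14, limma adjusted p = 0.363) and the genotype difference -0.22 log2 (SE 0.13, limma adjusted p = 0.745). Per kilobase of transcript, Pam stood at 24.0, 34.7 and 12.3% of Nppa in KO-1, KO-2 and KO-3 and at 21.2, 28.3 and 10.2% in WT-1, WT-2 and WT-3. This ratio was higher in all 4 hearts of 14 months than in both of 5 months. The transcripts differ in length (4102 bases for Pam, 865 for Nppa). Over all genes the median age difference was 0.20 log2 at 4000 to 6000 bases and -0.76 under 1000 bases, and its part in the ratio was not tested.

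Sln (ENSMUSG00000042045, chromosome 9, 53850164 to 53854560, plus strand) had values of 919 and 628 in the 14-month KO hearts and 2376 in the 5-month KO heart, against 1047 and 797 in the 14-month WT hearts and 3198 in the 5-month WT heart. Its 6 libraries ranked in the same order as those of Nppa, with KO-2 lowest, then WT-2, KO-1, WT-1, KO-3 and WT-3. Sarcolipin fell to 30.3% at 14 months (95% interval 22.6 to 40.5%), or -1.72 log2 (SE 0.18, limma adjusted p = 7.30e-04), the lowest adjusted p of the 7 genes. The genotype difference was -0.32 log2 (SE 0.17, limma adjusted p = 0.745), with KO at 87.8, 78.8 and 74.3% of WT in replicates 1, 2 and 3.

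Myl4, the atrial essential light chain (ENSMUSG00000061086, chromosome 11, 104550663 to 104595753, plus strand), was at 4391 and 2793 in the 14-month KO hearts and 5989 in the 5-month KO heart, against 4182 and 3408 in the 14-month WT hearts and 10538 in the 5-month WT heart. Myl7, the atrial regulatory light chain (ENSMUSG00000020469, chromosome 11, 5896637 to 5898782, minus strand), was at 2724 and 1943 in the 14-month KO hearts and 5780 in the 5-month KO heart, against 2426 and 2295 in the 14-month WT hearts and 10233 in the 5-month WT heart. In both light chains KO-1 lay above WT-1, KO-2 below WT-2 and KO-3 below WT-3. Myl4 fell to 45.8% at 14 months (95% interval 31.9 to 65.7%), or -1.13 log2 (SE 0.23, limma adjusted p = 0.00760), and was not called without WT-3 (-0.77 log2, limma adjusted p = 0.0994). Myl7 fell further in the fit, to 30.3% (95% interval 21.8 to 42.1%), or -1.72 log2 (SE 0.21, limma adjusted p = 0.00106), and the difference between the light chains was not tested. The genotype differences were -0.34 log2 for Myl4 (SE 0.21) and -0.30 log2 for Myl7 (SE 0.19), both with a limma adjusted p = 0.745.

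The 5-month KO heart held 56.8% of the Myl4 value and 56.5% of the Myl7 value of the 5-month WT heart, whereas KO-1 held 105% and 112% of WT-1. For Myl7 the KO minus WT difference at 14 months exceeded that at 5 months by 0.79 log2 (SE 0.28, limma adjusted p = 0.163), and for Myl4 by 0.71 log2 (SE 0.41, limma adjusted p = 0.381). Neither passed, and each genotype has 1 heart at 5 months. Without KO-2 the Myl7 difference was 1.03 log2 and was called (SE 0.16, limma adjusted p = 0.0365), in a fit whose residual spread comes from WT-1 and WT-2 alone, the only hearts that then share a genotype and age.

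Bmp10 (ENSMUSG00000030046, chromosome 6, 87428994 to 87437677, plus strand) had no order by age. Its values were 3263 and 811 in the 14-month KO hearts and 1617 in the 5-month KO heart, against 3031 and 2027 in the 14-month WT hearts and 3071 in the 5-month WT heart. KO-1 was the highest library and KO-2 the lowest, a spread of 4.02 times inside 1 genotype and age. The interval of the age difference ran from -1.61 to 1.31 log2 around -0.15 (SE 0.57, limma adjusted p = 0.863), and that of the genotype difference ran from -2.09 to 0.67 log2 around -0.71 (SE 0.54, limma adjusted p = 0.754). KO-2 held 40.0% and KO-3 52.7% of the WT heart of the same number, and KO-1 held 108%.

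Dkk3 (ENSMUSG00000030772, chromosome 7, 112116017 to 112159057, minus strand) was at 1147 and 784 in the 14-month KO hearts and 825 in the 5-month KO heart, against 1243 and 1097 in the 14-month WT hearts and 1090 in the 5-month WT heart. KO-1 was above WT-2 and WT-3, so the genotypes overlapped. Dkk3 differed by 0.15 log2 between the ages (SE 0.17, limma adjusted p = 0.515) and by -0.33 log2 between the genotypes (SE 0.16, unadjusted p = 0.0648, limma adjusted p = 0.745), the smallest unadjusted genotype p of the 7.

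**Figure D2:**
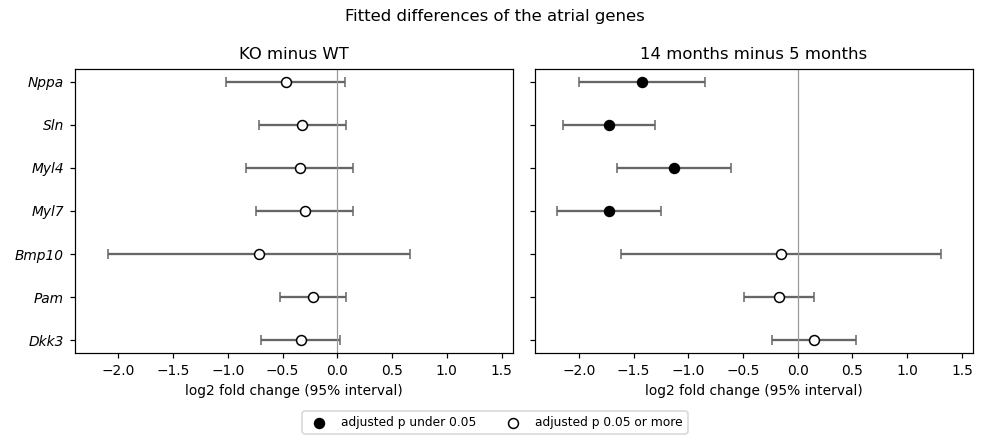
Fitted log2 fold changes of the 7 atrial genes with 95% intervals from limma, KO minus WT on the left and 14 months minus 5 months on the right; filled points have an adjusted p under 0.05 over all genes tested. Nppa, Sln, Myl4 and Myl7 lie between -1.72 and -1.13 by age, and all 7 genotype intervals include 0.

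Across genotypes the 7 genes had fitted KO minus WT values of -0.71 to -0.22 log2 with a median of -0.33, beside a median of -0.02 over all genes, of which 53.9% were below 0. In the 5-month pair KO was below WT in 7 of 7 genes (54.1% of all genes), in replicate 2 also in 7 of 7 (49.4% of all genes), and in replicate 1 in 4 of 7 (51.5% of all genes). In 0 of the 7 did the KO libraries lie apart from the WT libraries, against 5.77% of all genes (KO higher in 2.88%, lower in 2.89%). Values below WT were also fitted for 7 of 7 fibroblast markers (median -0.27 log2) and 6 of 7 cardiomyocyte markers (median -0.30 log2), and genes with transcripts under 1000 bases had a median of -0.20 log2. The size of the difference depended on the libraries used. Without the 5-month pair Myl7 was at -0.04 and Myl4 at -0.11 log2. Leaving out KO-3 or WT-3 gives these same values, since the age term then fits the remaining 5-month heart. Bmp10 was at -0.17 log2 without KO-2 and -1.32 without KO-1. The summed value of 5 adipocyte markers was 933, 1576 and 148 in KO-1, KO-2 and KO-3 and 278, 205 and 307 in WT-1, WT-2 and WT-3, and that of 5 erythroid markers was 10250, 19386 and 2727 in KO and 66820, 6782 and 13770 in WT. Their part in the genotype values was not tested.

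Inside an age the 7 genes moved from heart to heart together. Replicate 2 lay below replicate 1 in both genotypes in 7 of the 7 genes, as it did in 23.1% of all genes, and KO-2 was the lowest library in 7 of 7, as it was in 11.8% of all genes. Relative to the mean of the 4 hearts of 14 months, KO-2 stood at -1.31 log2 in Bmp10, -0.63 in Nppa, -0.42 in Dkk3, -0.41 in Sln, -0.38 in Myl4, -0.26 in Myl7 and -0.25 in Pam. WT-2 was between -0.09 and 0.06 log2 of the same mean in all 7. Of 15 further atrial genes tested, 8 were lower in replicate 2 than in replicate 1 in both genotypes and 3 were lowest in KO-2, whereas of 12 ventricular genes and of 14 cardiac transcription factors 0 were lower in replicate 2 in both genotypes. The pattern was also present outside the atrial lists, in 4 of 5 smooth muscle and pericyte markers, 4 of 5 macrophage markers (3 of them lowest in KO-2), 4 of 6 conduction markers, 2 of 3 Schwann cell markers and 3 of 5 calcium pump genes. The sums over the Y chromosome also differ between replicates 1 and 2, and the part of sex in this was not tested.

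**Figure D3:**
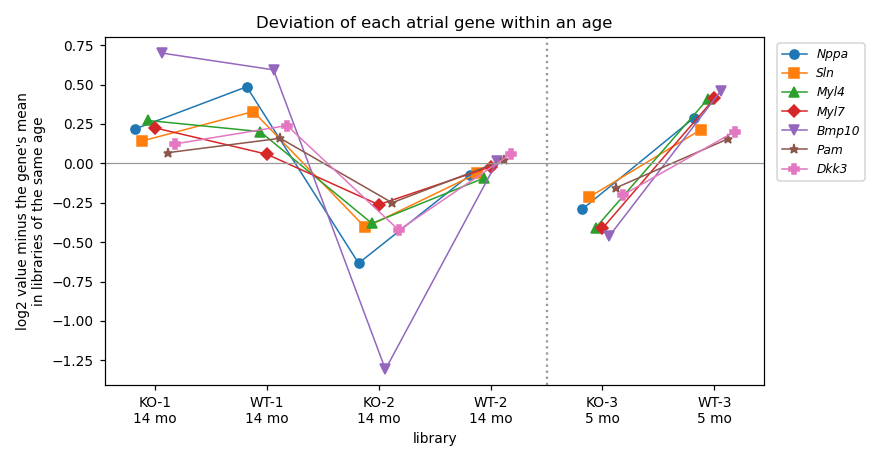
Deviation of each atrial gene in each library from its own mean in libraries of the same age (y axis, log2), with the 4 libraries of 14 months on the left and the pair of 5 months on the right; lines join the values of a gene and stand for no order in time. All 7 genes are lowest in KO-2 among the 14-month hearts and lower in KO-3 than in WT-3.

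Per kilobase of transcript and averaged over the 6 libraries, Nppa was at 20811, Myl7 at 7176, Myl4 at 5532, Pam at 3613, Sln at 1134, Bmp10 at 513 and Dkk3 at 307. Nppa and Sln each varied 5.09-fold over the 6 libraries, but the ratio of Nppa to Sln varied 1.45-fold, and that of Sln to Myl7 1.38-fold. The ratio of Nppa to Myl4 varied 1.59-fold, that of Nppa to Myl7 1.80-fold, that of Sln to Myl4 1.90-fold and that of Myl4 to Myl7 1.67-fold, with per-kilobase values of Myl4 at 101, 89.9 and 64.8% of Myl7 in KO-1, KO-2 and KO-3 and at 108, 92.9 and 64.4% in WT-1, WT-2 and WT-3. By full transcript length the light chain ratio was therefore close to 1 at 14 months and lower at 5 months in both genotypes. The level of this ratio depends on the lengths used. By contrast the ratio of Bmp10 to Myl7 varied 4.46-fold and that of Dkk3 to Myl7 4.81-fold, both lowest in the 5-month hearts. The age difference over all genes ran with transcript length, as given next, and its part in these ratios was not tested.

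Transcript length differs between the genes that fell and those that did not. The main coding transcript of Myl7 has 590 bases, of Nppa 865, of Myl4 943 and of Sln 1318, whereas that of Dkk3 has 3359, of Pam 4102 and of Bmp10 4490. Over all genes the age difference ran with length: genes under 1000 bases (694 genes) had a median of -0.76 log2 and 58.5% of them were called lower at 14 months, genes of 1000 to 1500 bases (1153 genes) a median of -0.41 with 37% called lower, and genes of 4000 to 6000 bases (2861 genes) a median of 0.20 with 7.58% called lower. Among genes of their own length class, 0.781% stood lower than Sln, 6.2% lower than Myl7, 12.7% lower than Nppa and 26.2% lower than Myl4, and in theirs 26.8% lower than Bmp10, 25.1% lower than Pam and 51.3% lower than Dkk3. The RefSeq span of Sln less the GENCODE intron is 520 bases, called its RefSeq length here. With it Sln falls in the class under 1000 bases, where 6.2% of genes stood lower than Sln. After the length trend of each library was removed, an alternative chosen after the data were seen, Sln (-1.35 log2, limma adjusted p = 0.00233) and Myl7 (-0.75 log2, limma adjusted p = 0.00859) stayed called, and Nppa (-0.73 log2, limma adjusted p = 0.0575) and Myl4 (-0.50 log2, limma adjusted p = 0.0812) did not. With Sln at its RefSeq length, an alternative also chosen after the data were seen, its value was -0.65 log2 (limma adjusted p = 0.0310) in place of -1.35, so the size of its remaining difference depends on the gene model. Rises at 14 months ran with length too: 3.89% of genes under 1000 bases were called higher, against 26% at 4000 to 6000 bases. The part of length in the rises of the gene lists below was not tested.

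**Figure D4:**
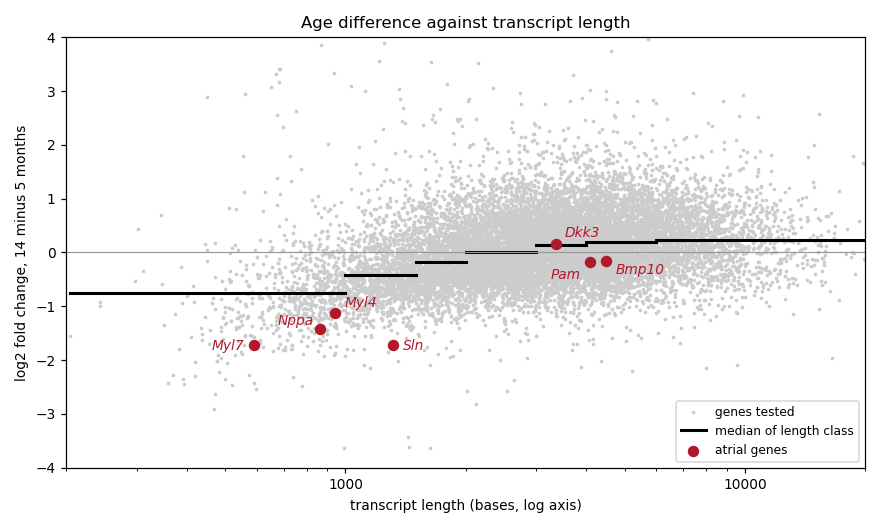
Log2 fold change of 14 months minus 5 months (y axis) against transcript length in bases (x axis, logarithmic) for 13344 tested genes in grey, with the median of each length class as a black line and the 7 atrial genes in red; 32 genes lie outside the axes. Nppa, Sln, Myl4 and Myl7 lie below the median of their length class, and that median itself falls toward short transcripts.

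Each atrial gene was set against its ventricular counterpart in the same library, per kilobase of transcript. Myl7 was at 6.28, 3.68 and 8.44% of Myl2 in KO-1, KO-2 and KO-3 and at 5.42, 4.17 and 8.16% in WT-1, WT-2 and WT-3. Myl4 was at 10.4, 6.24 and 10.8% of Myl3 in KO and at 9.35, 7.28 and 11.6% in WT. Both shares were highest in the 5-month hearts and lowest in KO-2, and the genotypes overlapped. The ventricular chains, whose transcripts are also short (Myl2 889 and Myl3 937 bases), fell with age too, Myl2 by 0.93 log2 (SE 0.21, limma adjusted p = 0.0125) and Myl3 by 0.67 log2 (SE 0.17, limma adjusted p = 0.0186).

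Sln stood at 1.82, 1.04 and 3.77% of Pln in KO-1, KO-2 and KO-3 and at 1.77, 1.45 and 4.83% in WT-1, WT-2 and WT-3. These shares use the GENCODE transcript of Sln, which runs from 53850164 to 53854560, whereas the RefSeq model runs from 53850251 to 53853849. The RefSeq span less the GENCODE intron of 3079 bases is 520 bases. With that length the mean level per kilobase would be 2874 in place of 1134. Pln differed by -0.20 log2 between the ages (SE 0.14, limma adjusted p = 0.295) and the pump Atp2a2 by 0.41 log2 (SE 0.15, limma adjusted p = 0.0630). Of the 5 genes tested in the list of calcium pumps and their small regulators 1 rose at 14 months and 0 fell. Of all genes 17.7% were called higher and 16% lower. The gene that rose was the pump Atp2a3 (1.04 log2, limma adjusted p = 0.0101). Between genotypes 0 of the 5 passed, as did 0% of all genes (Pln -0.05 log2, SE 0.13, and Atp2a2 -0.04 log2, SE 0.14).

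Nppb, the B-type natriuretic peptide made in both chambers, set KO and WT apart at 14 months when used as the base for Nppa. Nppa was at 529 and 384% of Nppb per kilobase in KO-1 and KO-2, against 874 and 840% in WT-1 and WT-2, and at 1034% in KO-3 against 1086% in WT-3. This ratio was noticed after its values were seen and was given no test. It rests on 2 hearts of each genotype at 14 months. At that age the genotypes overlapped in the ratios of Myl7 to Myl2, Myl4 to Myl3 and Sln to Pln. They were also apart in the ratios of Nppa to Myl4, Sln to Myl4, Sln to Myl7 and Dkk3 to Myl7. The share of all gene pairs set apart in this way was not computed. Nppa alone did not set the genotypes apart at that age, since KO-1 lay above WT-2. Nppb itself differed by 0.17 log2 between genotypes (SE 0.24, limma adjusted p = 0.843) and by -0.65 log2 between ages (SE 0.25, limma adjusted p = 0.0775).

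**Figure D5:**
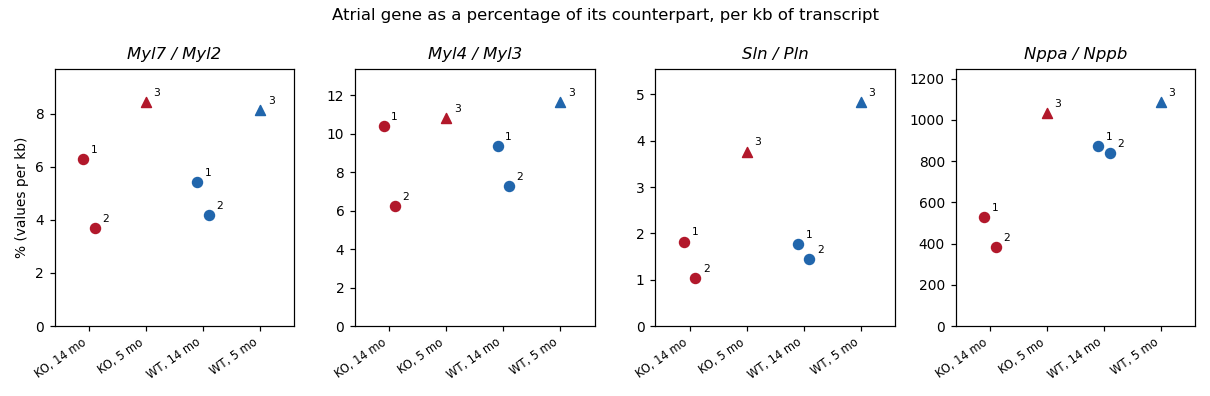
Level per kilobase of Myl7, Myl4, Sln and Nppa as a percentage of Myl2, Myl3, Pln and Nppb in the same library (y axes from 0), KO in red and WT in blue, circles for 14 months and triangles for 5 months. In each panel the 5-month hearts of both genotypes are highest, and KO-1 and KO-2 have the lowest values of Nppa over Nppb.

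Further genes of the natriuretic peptide system were 14 in number, of which 12 were tested. Corin, the protease that cleaves the Nppa precursor on atrial cells, differed by -0.16 log2 in KO (SE 0.11, limma adjusted p = 0.745) and by 0.09 log2 by age (SE 0.11, limma adjusted p = 0.566). The receptor Npr1, which makes cyclic GMP, stood at 0.04 log2 in KO and 0.32 log2 at 14 months (limma adjusted p = 0.0842), and the clearance receptor Npr3 at -0.29 and -0.20 log2. By age 3 of the 12 rose and 0 fell, beside 17.7% of all genes called higher and 16% called lower: the protease Furin (0.81 log2) and the phosphodiesterases Pde5a (0.73) and Pde2a (0.58). Between genotypes 0 of 12 passed, with a median of -0.02 log2.

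The 16 further atrial genes (15 tested) included members that moved either way. At 14 months 7 of 15 rose and 2 fell, beside 17.7% of all genes called higher and 16% called lower, with a median of 0.28 log2 beside 0.02 over all genes. Cacna2d2, a calcium channel subunit, rose by 1.45 log2 (SE 0.21) and Nr2f1, a nuclear receptor gene, by 0.82 (SE 0.25). Fgf12, a modulator of sodium channels, fell by 0.78 log2 (SE 0.25) and the lipid transfer protein gene Stard10 fell by 0.75 (SE 0.16). Mybphl, a myosin-binding protein gene of the atrium, and Sbk2, an atrial kinase gene, were picked after their values were seen; they stood at -0.60 and -0.78 log2 by age (limma adjusted p = 0.0731 and 0.0623) and at -0.35 and -0.38 log2 in KO. Between KO and WT 0 of 15 passed, 8 were below and 7 above WT, and the most abundant, the potassium channel genes Kcnk3, Kcnj3 and Kcnj5, were at 0.18, -0.21 and 0.11 log2.

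Of 13 ventricular genes 12 were tested: by age 3 rose (Irx4 by 1.24, Irx5 by 1.19 and Irx3 by 0.97 log2, homeobox factors) and 3 fell. Of all genes 17.7% were called higher and 16% lower. By genotype 0 of the 12 passed, with a median of -0.04 log2. The myosin list (13 tested of 15) had 6 lower and 1 higher gene at 14 months, beside 16% and 17.7% of all genes and 58.5% called lower among transcripts under 1000 bases. Among them were Myh7b (-0.94 log2), Myl6 (-0.80) and, on the other side, the phosphatase subunit Ppp1r12b (0.88). Myh6, the main heavy chain of the adult mouse heart, stood at -0.44 log2 in KO (SE 0.25, limma adjusted p = 0.745), and its genotype difference at 14 months exceeded that at 5 months by 1.26 log2 (SE 0.19, limma adjusted p = 0.0320). Of the ventricular genes 2 of 12 were called in the same comparison, against 1.19% of all genes called higher: the gap junction gene Gja1 (1.20 log2, limma adjusted p = 0.0362) and the LIM domain gene Fhl2 (0.80 log2, limma adjusted p = 0.0468). WT-3 held 400427 of Myh6 against 164726 in KO-3 and 159955 to 196546 in the 14-month hearts. These calls of Myh6, Gja1 and Fhl2 rest on 1 heart of each genotype at 5 months. They were not followed under the alternatives, where the number of genes called in this comparison varied widely, as given below.

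Around Bmp10, 6 of 22 tested genes of the bone morphogenetic protein list rose at 14 months and 1 fell, beside 17.7% of all genes called higher and 16% called lower. The co-receptor Eng rose by 1.28 log2 (SE 0.15), the ligand Bmp6 by 1.20 (SE 0.17) and Smad9 by 1.08 (SE 0.34), while Tcap, a Z-disc protein gene with a transcript of 948 bases, fell by 1.40 (SE 0.20). Acvrl1, named here for its role after its values were seen, the type I receptor for Bmp10 on endothelial cells, was at 0.26 log2 by age (SE 0.19, limma adjusted p = 0.324) and -0.10 log2 in KO (SE 0.18). Endothelial markers moved with this list: the sum of 5 of them was 11043 to 14417 in the 14-month hearts and 6984 to 7789 in the 5-month hearts, and its part was not tested. Around Dkk3, 5 of 9 tested Wnt receptor and inhibitor genes rose at 14 months and 1 fell, beside the same shares of all genes, with the secreted inhibitors Frzb (1.42 log2), Sfrp1 (1.28) and Sfrp2 (1.05) and the receptor Lrp5 (1.03) leading. Between genotypes 0 of 22 and 0 of 9 passed.

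Regulated secretion genes other than Pam were mostly at low values in these hearts. Of 11 genes 2 passed the filter, Cpe and Sort1. Of the others, picked after their values were seen, the granin gene Chgb was at most 8.71 in any library and Scg3 at most 11.8. Cpe, a carboxypeptidase of peptide granules, was at 0.09 log2 by age and -0.28 log2 in KO (SE 0.15, limma adjusted p = 0.745), and the sorting receptor Sort1 rose by 0.75 log2 at 14 months (SE 0.15, limma adjusted p = 0.00711).

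The genes most like each atrial gene were sought over the 6 libraries by Pearson correlation of log2 values, a measure of likeness given as a description with no test, since the libraries share 1 split by age. Nppa was most like Vps26a (r = 0.998), Mlana (0.994) and Tmem128 (0.989), and Sln stood at rank 17 (0.978). For Sln the nearest were Rab29 (0.999), Ginm1 (0.999) and Khk (0.997), for Myl4 Syngr1 (0.998), Mrpl47 (0.995) and Cd59a (0.993), and for Myl7 Rpl22l1, Cox7a2l and Sssca1 (0.999 each). Bmp10 was most like Zfp709 (0.978), the secreted BMP regulator gene Bmper (0.976) and Bex4 (0.975), with Dkk3 at rank 44 (0.894) and Pam at rank 53 (0.875).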

How the data were processed

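RNA of 6 hearts was extracted with Trizol and made into Illumina libraries by BGI, per the labels' protocols. Per the submitters' processing notes, Salmon 1.5.2 and mm10 were used; normalization and filters were not given in the sources used here. Deposited values are a normalized signal per gene and not whole numbers, so depth is unknown and no counting interval is given. Of the identifiers 20146 matched GENCODE M21 (GRCm38), 108 did not, and 108 broken lines were left out. limma 3.58.1 in R 4.3.3 was fitted to log2(value + 1) with trend and robust options: genotype plus age (KO minus WT, 14 minus 5 months) and, in a further model, their product, with Benjamini-Hochberg adjustment over 13823 genes at 0.05. SD is over values; SE and 95% intervals are limma's. The fit was tested on simulated data. Levels per kilobase divide a value by the length of the main GENCODE coding transcript. The members, lists and tests were chosen with earlier results of these data known. Named list genes are the called members (at most 4 by fold change) or else the 3 most abundant; other named genes are so marked. Strit1 was read under its older symbol; Myl12b, with 2 identifiers, was left out. Nothing in the labels says that hearts of the same number were paired, and the p-values measure the spread between these animals. Alternatives were another pseudocount (10), no filter, quantile and upper-quartile scaling, limma-voom, each library left out, both replicate 2 libraries left out, a replicate block, no age term, 14 months alone and, added after the data were seen, removal of the transcript length trend of each library (lowess, span 0.3), also with Sln at its RefSeq length.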

Additional observations from a re-analysis of the deposited data

How the results depend on the processing

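The age calls of Sln and Myl7 held under all 14 alternatives run, with Sln at -1.85 to -0.65 log2 and Myl7 at -2.12 to -0.74. Without WT-3 2 of the 7 genes stayed called by age, with Nppa at -1.34 log2 (limma adjusted p = 0.118) and Myl4 at -0.77 (limma adjusted p = 0.0994), and with the length trend removed also 2, at either length of Sln; without KO-3 Nppa was at -1.51 (limma adjusted p = 0.0979), and leaving out each library gave 2 to 4. All 7 genotype values stayed below 0 under all 17 alternatives run and 0 of the 7 were called in any of them. Not all of the 17 could move a value. No filter, the replicate block and no age term return the main genotype value. Leaving out KO-3, leaving out WT-3 and 14 months alone give the same value as each other. In the others the size moved: Myl7 ran from -0.51 to -0.04 log2, Myl4 from -0.60 to -0.11, Bmp10 from -1.32 to -0.17, Pam from -0.33 to -0.05 (quantile scaling), Sln from -0.49 to -0.09, Nppa from -0.73 to -0.24 and Dkk3 from -0.50 to -0.19. Bmp10 by age turned to 0.26 log2 without KO-2, 0.01 without WT-3 and 0.50 without both replicate 2 libraries, with -0.60 to 0.26 over single libraries left out, and Pam to 0.10 under quantile scaling. By interaction 1 of the 7 genes (Myl7) was called without KO-2 and 0 otherwise. Over all genes, 0 were called between genotypes, 14 at 14 months alone, 0 to 5 with 1 library left out and 39 without both replicate 2 libraries; by age 4663, and 3246 to 4533 with 1 library left out and 3011 without both replicate 2 libraries; by interaction 287, with 4 unfiltered, 12 under quantile scaling, 148 with limma-voom, 93 with the length trend removed at either length of Sln and 13 to 234 with 1 library left out. The replicate block called 0 genes between genotypes and 359 by interaction, and changed no call of the 7. Same-number deviations from the genotype means correlated at 0.390, 0.383 and 0.617, replicate 3 being the 5-month hearts, with 0.382 and 0.369 between unlike numbers at 14 months, and at 0.0147 for the difference of replicates 1 and 2, so the numbers were not taken as pairs. Leaving out a 5-month library leaves the interaction without a fit.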

Other observations

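Of 14 cardiac transcription factors tested, 8 rose at 14 months and 1 fell, beside 17.7% of all genes called higher and 16% called lower, with the muscle coactivator Myocd at 1.07 log2 (SE 0.28), the zinc finger factor Gata4 at 0.93 (SE 0.16), the homeobox factor Nkx2-5 at 0.93 (SE 0.12) and the helix-loop-helix factor Hand2 at 0.86 (SE 0.26). The one that fell was Hopx (-0.77 log2, limma adjusted p = 0.0174), named after its value was seen, with a transcript of 1261 bases. Between genotypes 0 of 14 passed. Over all genes 26% of those of 4000 to 6000 bases were called higher at 14 months and 3.89% of those under 1000. The part of length in these rises was not tested.

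Conduction system and epicardial markers were described after their values were seen. Conduction markers summed to 1084, 1166 and 525 in KO-1, KO-2 and KO-3 and to 865, 752 and 606 in WT-1, WT-2 and WT-3. By age 3 of 6 tested rose and 0 fell, beside 17.7% of all genes called higher: the pacemaker channel gene Hcn4 by 1.35 log2 (SE 0.32), the T-box factor Tbx3 by 1.05 (SE 0.18) and Cntn2 by 0.67 (SE 0.18). Of 6 epicardial and mesothelial markers 4 rose at 14 months, beside the same 17.7%, with sums of 291, 409, 399 and 570 in KO-1, KO-2, WT-1 and WT-2 and of 164 and 109 in KO-3 and WT-3.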
